A study of Homo sapiens with 102 samples.

Results

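The genes described here are FTL and FTH1, which encode the light and heavy chains of ferritin, the FTL-like locus FTLP3, and TFRC, the transferrin receptor. They were taken by gene symbol from the deposited count table, where their Ensembl identifiers (ENSG00000087086, ENSG00000167996, ENSG00000226608 and ENSG00000072274) each matched 1 entry, so that 4 of 24965 genes were members. The set was chosen with results of these data known. FTL and FTLP3 had been picked for a lower level in libraries with YM115, so the YM115 contrast is given for all 4 genes as a description, without a test. Later tests of YM115 in pairs, in both positions and by screen use the same libraries, so for FTL and FTLP3 they are descriptions too.

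The libraries came from Combi-Seq of K562, a chronic myeloid leukaemia cell line with the BCR-ABL fusion, after 12 h in picolitre droplets. Each of 2 drug sources held DMSO (the solvent), imatinib (an inhibitor of the ABL kinase), trametinib (a MEK inhibitor) or YM115, which gave 16 ordered pairs. YM115 is spelled here as in the labels. In the study its name is YM155, and it lowers the expression of survivin, an inhibitor of cell death. Each pair was read in 3 runs in the dT screen and in 3 runs of the Bio screen, in which the barcodes of the sources were swapped, and each screen had 3 separate DMSO controls besides. All libraries share the cell line, the droplet format and the incubation time, and a pair is written with its first-listed drug before its second-listed drug, since the injection source of a listed drug was not settled. The study calls the runs biological replicates, the labels name no separate cultures, and p-values measure the spread between these libraries.

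Ferritin is a hollow protein shell of light and heavy chains that stores iron. The heavy chain oxidises iron on entry, the light chain helps to form the mineral core, and TFRC brings iron into the cell by binding transferrin. Iron regulatory proteins bind a short RNA hairpin, the iron-responsive element, in these transcripts. Bound at the 5′ end of ferritin mRNA they block translation, and bound at the 3′ end of TFRC mRNA they slow its decay, so that much of ferritin control acts on the protein and not on the read count. Erythroid cells use much iron for haem, and K562 cells have erythroid features. FTLP3 is annotated as a processed pseudogene, a copy of the FTL mRNA in the genome.

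The hairpins are shown because they are known control sites of the 3 coding genes. They were found in GENCODE 29 transcripts on GRCh38, written 5′ to 3′ in DNA letters on the strand of the gene, and capitals mark the 6-base loop. FTL lies on chromosome 19 (48965301 to 48966878, plus strand) and holds 1 element in the 5′ UTR of exon 1. FTH1 lies on chromosome 11 (61959718 to 61967660, minus strand) and also holds 1 in the 5′ UTR of exon 1. TFRC lies on chromosome 3 (196027183 to 196082189, minus strand), where the search below matched 4 in the 3′ UTR of exon 19.
FTL, chr19:48965336-48965363, plus strand: tcttgcttcaaCAGTGTttggacggaac
FTH1, chr11:61967574-61967601, minus strand: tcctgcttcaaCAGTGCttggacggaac
TFRC, chr3:196050979-196051006, minus strand: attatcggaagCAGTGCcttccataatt
TFRC, chr3:196050575-196050602, minus strand: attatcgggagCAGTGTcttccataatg
TFRC, chr3:196050510-196050537, minus strand: tgtatcggagaCAGTGAtctccatatgt
TFRC, chr3:196050463-196050490, minus strand: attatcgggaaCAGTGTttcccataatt
The search asked for the loop CAGTGN, 5 paired bases on its stem, an unpaired C below them and at least 4 of 5 further pairs, on the transcript strand. It matched 27 of 19669 protein-coding genes (0.137%). Elements that depart from this pattern are missed, so the elements shown may not be all that a gene holds.

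FTLP3 and FTL share most of their bases, which bears on every FTLP3 value below. The 528 bases of FTLP3 (chromosome 20, 4023917 to 4024444, plus strand) aligned without a gap to coding bases 208 to 735 of the FTL transcript, a stretch that does not hold the hairpin, and 516 were identical (97.73%). Of the 470 windows of 59 bases in FTLP3, the length of the sequenced read, 117 (24.89%) occurred unchanged in FTL and a further 193 differed at 1 base. The last window of FTLP3 is shown beside its counterpart in FTL, whose transcript runs on to base 878, with the differing bases in capitals.
FTL, chr19:48966677-48966735, plus strand, exon 4: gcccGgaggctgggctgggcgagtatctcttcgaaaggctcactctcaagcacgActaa
FTLP3, chr20:4024386-4024444, plus strand: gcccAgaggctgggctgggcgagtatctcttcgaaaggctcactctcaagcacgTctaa
How reads that fit both genes were assigned is not given in the sources used here. FTLP3 counts are therefore uncertain, since they could hold reads of FTL with base errors, and how much of them did was not tested.

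In-screen libraries held 127042 to 759756 counts in dT (median 350752) and 17882 to 780143 in Bio (median 231438). All 48 dT libraries and 44 of 48 Bio libraries entered the comparisons, with 1000 detected genes or more and mitochondrial counts of 15% or less. The Bio libraries left out were all 3 of Imatinib_Imatinib and run 1 of DMSO_Trametinib. HBG2, the gamma globin that K562 cells express, was counted in 48 of 48 dT libraries and 46 of 48 Bio libraries, but with 1, 0 and 0 counts in the 3 Imatinib_Imatinib libraries of Bio. TFRC, itself an erythroid marker, was at 0 in 33 of 48 dT libraries, whereas summed markers of T cells, B cells, monocytes, epithelium and fibroblasts had a median of 0 CPM in both screens, with a highest value of 1977 CPM (T cell markers, Bio). The separate controls stood apart in composition, with 7410 to 10361 detected genes in dT and 5501 to 7058 in Bio against at most 5110 and 3849 in screen. Levels are CPM, the count of a gene divided by the total of its library and scaled to 1e+06, and a lower level over a pool of cells cannot be told apart from fewer cells that express the gene.

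FTL was counted in every library and was among the most abundant transcripts. Its level ran from 1831 to 19467 CPM over the 48 dT libraries (median 6132) and over the 44 Bio libraries from 2206 to 13172 CPM (median 6604). By rank within a library, the median position of FTL was 21.5 in dT and 21 in Bio, and it was among the 10 highest genes in 5 and 1 libraries. FTH1 was lower, at 166 to 2365 CPM in dT (median 696) and 19.97 to 2055 CPM in Bio (median 580). FTLP3 lay at 6.45 to 283 CPM in dT (median 36.2) and at 0 to 215 CPM in Bio (median 23.5), and more than 3 counts of it were present in 43 of 48 and 29 of 44 libraries. Per kilobase of transcript, the median levels in dT were 6984 CPM for FTL, 567 CPM for FTH1 and 68.6 CPM for FTLP3. In Bio the same levels per kilobase were 7522, 472 and 44.5 CPM. Divided in this way, FTL exceeded FTH1 by a median factor of 11.9 in dT and 14.7 in Bio, against 8.54 and 10.5 in the counts themselves. The libraries are read from the 3′ end, so counts need not grow with transcript length and the division may overstate the difference.

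With DMSO in both positions, FTL stood at 11736, 7157 and 7781 CPM in runs 1 to 3 of dT and at 12118, 5641 and 7188 CPM in Bio. Run 1 was the highest in both screens, so effects were read within runs. The highest dT condition was DMSO_Trametinib, at 17986, 14254 and 19467 CPM (17236 ± 2687, SD, n = 3). These 3 libraries lay above every other dT library, 1.53, 1.99 and 2.50 times the solvent libraries of their runs. No share of all genes with a condition set apart like this stands beside it, so it is a description. In the opposite order, Trametinib_DMSO, FTL was at 8136, 10087 and 7147 CPM, overlapping the solvent libraries. In Bio, DMSO_Trametinib had 13172 and 9110 CPM in the 2 libraries that entered (2.34 and 1.27 times solvent), and Trametinib_DMSO had 13168, 10810 and 10844 CPM, all above the solvent library of their run.

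Imatinib beside DMSO did not set FTL apart. In dT it was at 9367, 7237 and 12275 CPM for DMSO_Imatinib and at 8320, 8064 and 2898 CPM for Imatinib_DMSO. In Bio the values were 8045, 6697 and 7332 CPM and 10217, 2567 and 6834 CPM. Both orders overlapped the solvent libraries in both screens. With imatinib in both positions dT libraries held 8691, 5486 and 2356 CPM.

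The dT libraries with YM115 were low as a set. YM115_YM115 was the lowest condition at 6065, 3133 and 1836 CPM (3678 ± 2167, SD, n = 3), and beside DMSO the compound gave 6675, 5725 and 4806 CPM as DMSO_YM115 and 7468, 3632 and 3892 CPM as YM115_DMSO. With imatinib FTL was at 6120, 4296 and 1831 CPM (Imatinib_YM115) and at 7255, 5133 and 3740 CPM (YM115_Imatinib). With trametinib it was at 5676, 4004 and 4660 CPM (Trametinib_YM115) and at 6144, 4010 and 4100 CPM (YM115_Trametinib). All 21 dT libraries with YM115 lay below the solvent library of their own run, at 0.235 to 0.800 of it (median 0.527). The same held for 18 of 21 libraries with imatinib and 16 of 21 with trametinib, some of which also held YM115. These counts have no share over all genes beside them and are descriptions.

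In Bio the same pairs spread further. YM115_YM115 had 4498, 6431 and 4759 CPM, DMSO_YM115 had 8790, 7127 and 5785 CPM, and YM115_DMSO had 8494, 4554 and 5622 CPM. With a second drug FTL reached from 2206 CPM (Imatinib_YM115, run 2) to 8487 CPM (YM115_Imatinib, run 3). Of the 21 Bio libraries with YM115, 16 lay below the solvent library of their run, at a median of 0.725 of it, beside 13 of 18 with imatinib and 12 of 20 with trametinib. In the order of mean FTL over all 16 dT conditions, 14 of 15 neighbours overlapped in their libraries, the exception being DMSO_Trametinib above DMSO_Imatinib. In Bio all 15 neighbours overlapped, with the libraries left out of the comparisons included.

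**Figure D1:**
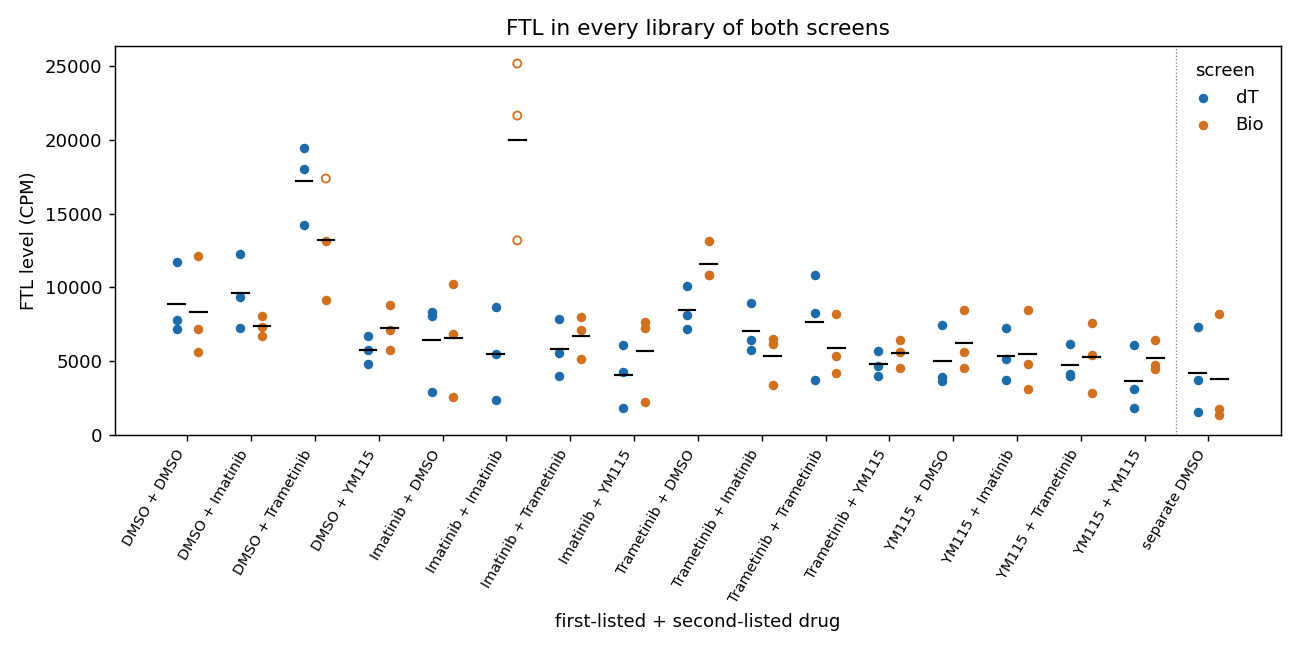
FTL in CPM by ordered drug pair, dT and Bio, with separate DMSO controls to the right of the dotted line. Points are libraries, bars the mean of 3, and open circles Bio libraries left out of the comparisons. DMSO_Trametinib stands highest in dT (14254 to 19467 CPM), and every dT pair with YM115 stays at or below 7468 CPM.

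The highest dT conditions differed between FTH1 and FTL, while YM115_YM115 was lowest in both. In dT it was at 1624, 528 and 1230 CPM with DMSO in both positions and highest in DMSO_Imatinib, at 2062, 2063 and 2093 CPM (2073 ± 17.7, SD, n = 3). The reverse order, Imatinib_DMSO, had 634, 489 and 374 CPM, with no overlap. DMSO_Trametinib, where FTL peaked, had 479, 588 and 1013 CPM of FTH1, and Trametinib_DMSO had 1001, 1422 and 1386 CPM. The lowest dT condition was YM115_YM115, with 270, 274 and 294 CPM (280 ± 12.8, SD, n = 3), all below the 3 solvent libraries. This too is a description, with no share over all genes beside it.

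Libraries with YM115 listed first had a lower median of FTH1 than those with YM115 listed second. Over 12 dT libraries of each kind, which share the 3 with YM115 in both positions, the first-listed ranged from 255 to 681 CPM (median 382) and the second-listed from 166 to 2365 CPM (median 554). In Bio they ranged from 19.97 to 1674 CPM (median 284) and from 122 to 1497 CPM (median 634). The ranges overlapped in both screens. Trametinib_YM115 against YM115_Trametinib in Bio showed the widest gap, with 792, 1032 and 1314 CPM against 61.7, 281 and 19.97 CPM. Imatinib with YM115 in Bio went the other way, with a mean of 490 CPM for Imatinib_YM115 and 735 CPM for YM115_Imatinib, and the joint test of position given below did not pass for FTH1.

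FTLP3 was at 99.8, 91.8 and 171 CPM in the dT solvent libraries, which is 18, 16 and 34 counts, and at 130, 109 and 85.6 CPM in those of Bio, which is 15, 16 and 7 counts. As for FTL, the highest dT values were in DMSO_Trametinib, at 135, 158 and 283 CPM. The lowest dT value, 6.45 CPM, came from Imatinib_DMSO, whose other runs held 19.7 and 40.4 CPM. All 21 libraries with YM115 in dT and all 21 in Bio lay below the solvent library of their run, and so did 20 of 21 and 17 of 18 libraries with imatinib and 18 of 21 and 19 of 20 with trametinib. The solvent library of a run is the same in all these ratios, so they are not independent of each other.

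**Figure D2:**
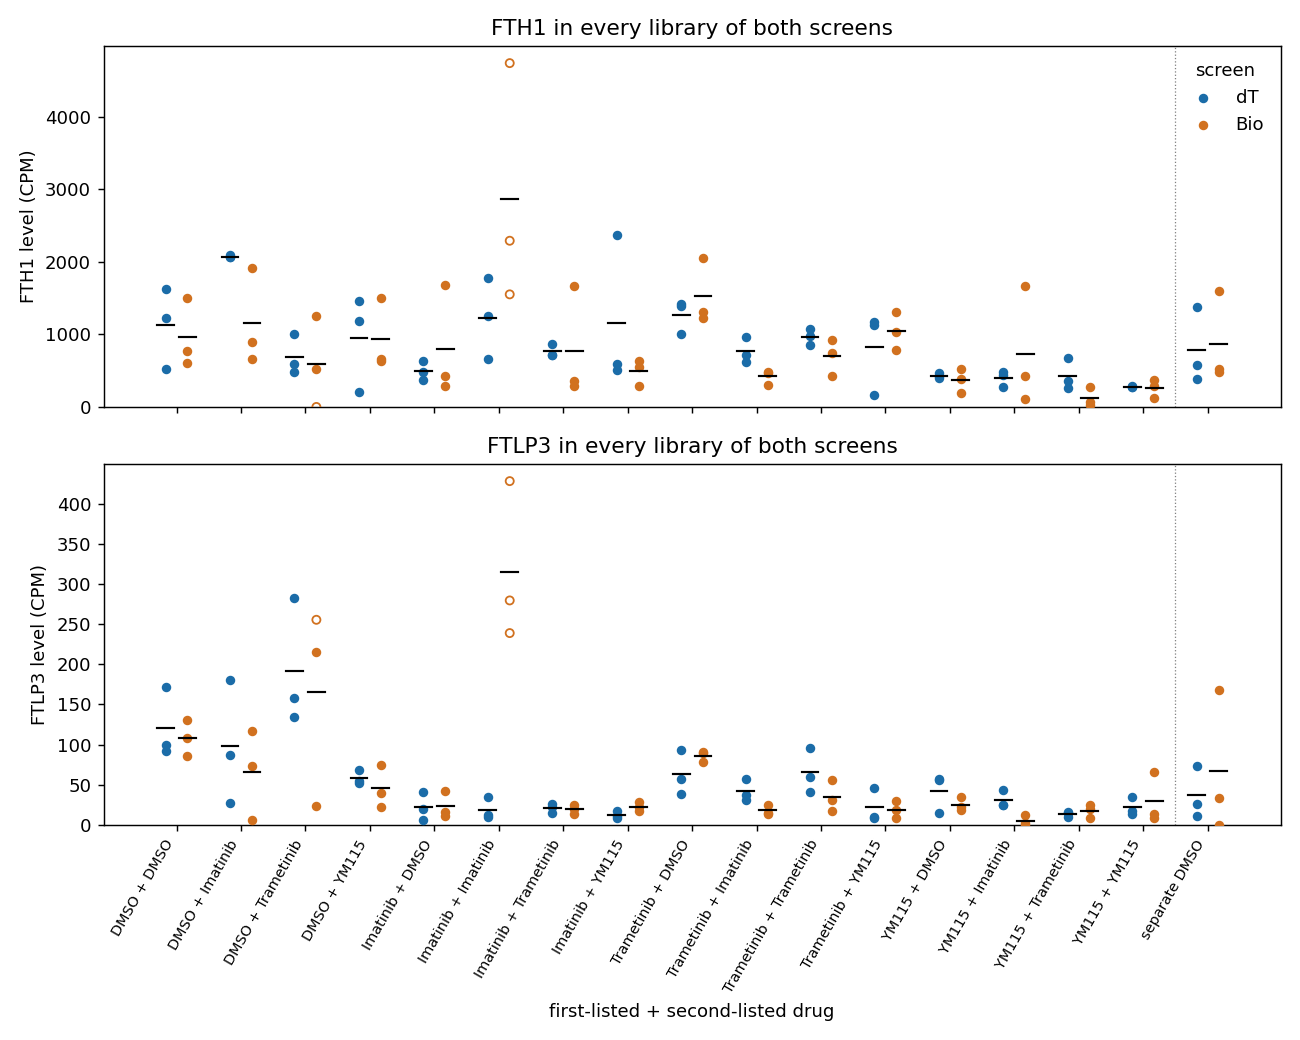
FTH1 and FTLP3 in CPM by ordered drug pair in the dT and Bio screens, with points, bars, open circles and dotted line as for FTL. FTH1 is highest in dT for DMSO_Imatinib (2062 to 2093 CPM) and lowest for YM115_YM115 (270 to 294 CPM), and FTLP3 stays below 283 CPM in libraries of the dT screen other than run 3 of DMSO_Trametinib.

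Each drug was then asked for its effect over all its libraries, in a model with 1 term per drug and run as a block. No member passed the threshold for imatinib or trametinib in either screen. For imatinib, FTL spanned 1831 to 12275 CPM (median 6120) in 21 dT libraries with the drug and 1836 to 19467 CPM (median 6144) in 27 without, and was lower on average in 3 of 3 runs. The log2 fold change was -0.32 ± 0.16 (SE, adjusted p = 0.362, edgeR quasi-likelihood test). In Bio, FTL spanned 2206 to 10217 CPM (median 6766, 18 libraries) against 2867 to 13172 CPM (median 6448, 26 libraries), with a log2 fold change of -0.27 ± 0.20 (adjusted p = 0.584). Over all genes, 2.88% passed for imatinib in dT and 2.39% in Bio. With only genes counted in at least 50% of libraries, 5 of 2187 and 0 of 924 passed.

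FTLP3 with imatinib was the closest of the members to the threshold. It spanned 6.45 to 181 CPM (median 25.4) with the drug and 8.53 to 283 CPM (median 54.5) without in dT, and 0 to 117 CPM (median 16.6) against 8.23 to 215 CPM (median 30.8) in Bio. The groups overlapped in both screens. Its log2 fold change in edgeR was -1.22 ± 0.53 for dT (adjusted p = 0.254) and -1.20 ± 0.55 for Bio (adjusted p = 0.267). DESeq2 gave -1.39 and -1.45, with adjusted p of 0.0213 and 0.0185, in tests that called 211 of 3930 and 194 of 1754 genes, and the alternatives spanned adjusted p values of 0.0213 to 0.665 in dT and 0.0185 to 0.745 in Bio. For FTH1 the edgeR log2 fold changes were 0.11 ± 0.31 in dT (adjusted p = 0.953, and -0.08 with DESeq2's size factors) and -0.20 ± 0.52 for Bio libraries (adjusted p = 0.932).

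For trametinib, FTL spanned 3711 to 19467 CPM (median 6401) with the drug in dT and 1831 to 12275 CPM (median 6065) without. The high end came from DMSO_Trametinib, and the log2 fold change over all pairs was 0.12 ± 0.16 (adjusted p = 0.870, edgeR). In Bio it was -0.01 ± 0.21 (adjusted p = 0.997). FTH1 had log2 fold changes of -0.14 ± 0.31 and -0.03 ± 0.53, and FTLP3 of -0.57 ± 0.57 and -0.79 ± 0.56 in dT and Bio, with adjusted p between 0.659 and 0.997. Of all genes, 1.37% passed for trametinib in dT and 2.22% in Bio. With only genes counted in at least 50% of libraries, 0 of 2187 and 1 of 924 passed.

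For YM115, the contrast on which FTL and FTLP3 were picked, all 4 members had negative fitted differences in dT. FTL spanned 1831 to 7468 CPM (median 4660) with the compound and 2356 to 19467 CPM (median 8064) without, with a log2 fold change of -0.85 ± 0.16 (SE). FTH1 had a median of 434 CPM against 961 CPM and a log2 fold change of -0.80 ± 0.31, and FTLP3 one of 17.3 CPM against 40.4 CPM and -1.61 ± 0.56. In Bio the log2 fold changes were -0.42 ± 0.20 for FTL (median 5622 against 7188 CPM), -0.64 ± 0.50 for FTH1 (427 against 746 CPM) and -1.55 ± 0.54 for FTLP3 (19.97 against 31.6 CPM). The members' means were lower with YM115 in 3 of 3 runs in both screens for FTL, FTH1 and FTLP3. TFRC, at 0 in most libraries, had -0.68 ± 2.05 in dT, and its value ran from -2.34 to 5.69 over the alternatives. Over all genes 2.62% passed for YM115 in dT and 2.74% in Bio, a share that is background to a choice and not to a finding about the members.

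The median gene lay above 0 in these fits, which sets the scale of the member values. The median log2 fold change over all genes tested was 0.07, 0.23 and 0.21 for imatinib, trametinib and YM115 in dT and 0.21, 0.39 and 0.60 in Bio. DESeq2's size factors moved these medians, to -0.10 for imatinib and 0.06 for YM115 in dT and to 0.25 for trametinib and 0.45 for YM115 in Bio. Libraries with YM115 were also deeper, with a median of 390691 counts against 316995 in dT and 242985 against 175540 in Bio. The part of depth in the lower ferritin levels was not tested.

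**Figure D3:**
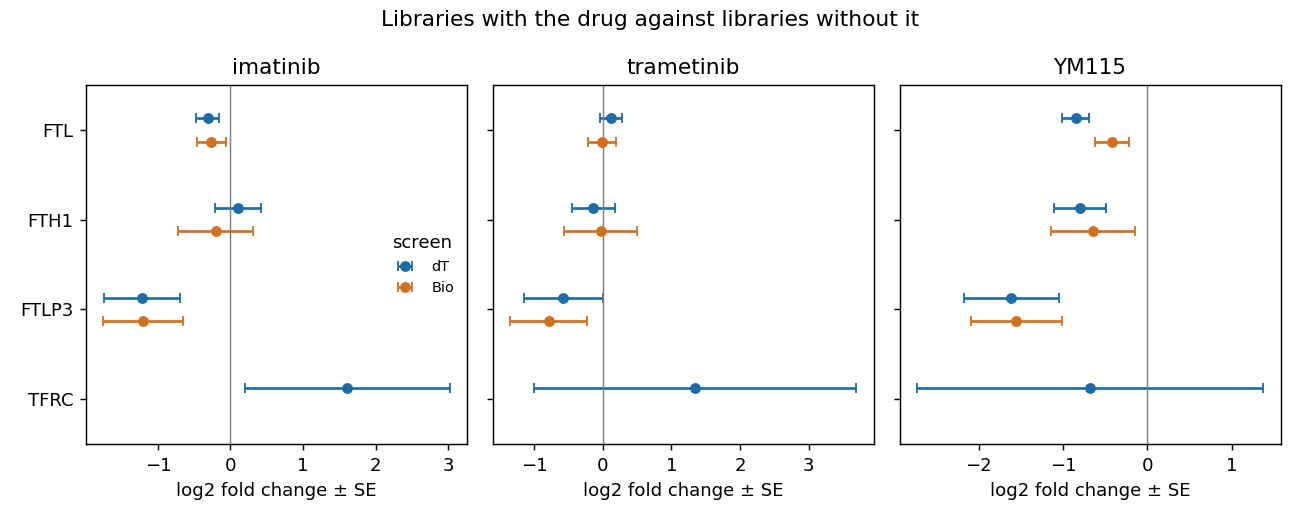
Log2 fold changes of the members for imatinib, trametinib and YM115 in dT and Bio from the edgeR fits, with error bars of 1 SE. FTL (-0.85 in dT, -0.42 in Bio) and FTLP3 (-1.61, -1.55) lie below 0 for YM115, the contrast they were picked on, and no member passed the threshold for imatinib or trametinib.

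The next question was whether it mattered in which position a drug was listed. The joint test of first against second position gave no member past the threshold in edgeR or DESeq2, with 1 in dT at an unadjusted p under 0.05. For FTL the adjusted p was 0.0867 in dT (0.0433 with DESeq2's size factors) and 0.747 in Bio. Its position coefficients in dT were -0.40 for imatinib, -0.31 for trametinib and -0.15 for YM115. A drug listed first entered as plus and one listed second as minus, so each coefficient is the step from the midpoint to either position. The full log2 difference between the positions spans both steps and is larger than the coefficient. FTH1 had adjusted p of 0.197 and 0.203, with coefficients for YM115 of -0.63 in dT and -0.72 in Bio. FTLP3 had adjusted p of 0.419 and 0.689, and TFRC one of 0.380 in dT, which was 0.0383 without replicate 3. Of all genes 13.9% passed this test in dT and 18.5% in Bio. Among genes counted in at least 50% of libraries, as FTL, FTH1 and FTLP3 were, 11 of 2187 passed in dT and 4 of 924 in Bio.

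Libraries with DMSO listed first were the shallowest of dT, at 127042 to 270885 counts, while the others had at least 259662 counts. FTL was at 4806 to 19467 CPM in those 12 libraries (median 8574), and FTLP3 at 27.1 to 283 CPM (median 95.8). The part of depth in the position differences was not tested. Comparing each pair with its reverse, 3 libraries against 3, FTL did not overlap in 1 of 6 dT pairs, FTH1 in 2, FTLP3 in 3 and TFRC in 0. In Bio the same held in 0, 2, 1 and 0 of 5 pairs. Over all genes counted in at least 50% of libraries, 11.2% of such comparisons in dT and 12% in Bio had no overlap. The FTH1 pairs without overlap in dT were the 2 orders of imatinib with DMSO and of imatinib with YM115, and in Bio those of YM115 with DMSO and with trametinib.

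Pairs of different drugs were asked for a departure from the sum of the single effects. Imatinib with trametinib gave FTL a log2 interaction of -0.53 ± 0.40 in dT (adjusted p = 0.505, edgeR) and -0.73 ± 0.57 in Bio (adjusted p = 0.633). Imatinib with YM115 gave 0.34 ± 0.40 (adjusted p = 0.771) and -0.20 ± 0.55 (adjusted p = 1), and trametinib with YM115 gave -0.35 ± 0.40 (adjusted p = 0.737) and -0.82 ± 0.55 (adjusted p = 0.412). Of 24 member tests 0 passed in edgeR, 2 had an unadjusted p under 0.05, both of them TFRC, and 0 passed in DESeq2. The 24 include TFRC in Bio, counted in 13.6% of libraries. Its SE there was 4637 for imatinib with trametinib and 5.97e+06 for imatinib with YM115, so these tests say nothing. Among all genes the shares that passed, in the order of the pairs above, were 0.447%, 0.431% and 0.527% for dT, and 0.379%, 0.0292% and 0.525% for Bio.

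The same drug in both positions was set against that drug with DMSO. FTL had log2 differences of -0.58 ± 0.29 for imatinib (adjusted p = 0.449, edgeR), -0.68 ± 0.29 for trametinib (adjusted p = 0.404) and -0.53 ± 0.29 for YM115 (adjusted p = 0.531) in dT. DESeq2 gave -0.81 for trametinib with an adjusted p of 0.0362. In Bio the differences were -0.79 ± 0.73 for trametinib and -0.15 ± 0.69 for YM115 (adjusted p = 1 for both), and imatinib had none, since its 3 double libraries were left out. Of 20 member tests 0 passed in edgeR, 2 had an unadjusted p under 0.05 and 2 passed in DESeq2. Among the 20, TFRC had an SE of 54.5 for trametinib in dT and of 317 for YM115 in Bio, so these tests say nothing. Of all genes 0.0319%, 0% and 0.016% passed in dT for imatinib, trametinib and YM115, with 690, 691 and 567 of 6263 at an unadjusted p under 0.05, and 0% and 0% passed in Bio for trametinib and YM115, with 289 and 355 of 4888. DESeq2 called 669, 468 and 455 genes for dT, and 376 and 426 for Bio.

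The drug effects were compared between the screens in 1 fit. FTL differed by 0.08 ± 0.25 for imatinib (adjusted p = 0.909, edgeR, log2, Bio minus dT), -0.08 ± 0.27 for trametinib (adjusted p = 0.941) and 0.43 ± 0.26 for YM115 (adjusted p = 0.342). Of 12 member tests 0 passed in edgeR, 1 had an unadjusted p under 0.05 and 0 passed in DESeq2. That one was TFRC with imatinib at -5.15 ± 1.94 (adjusted p = 0.0984), a gene at 0 in most libraries. Of all genes 5.84%, 4.59% and 6.59% passed for imatinib, trametinib and YM115. With only genes counted in at least 50% of libraries, 0, 0 and 4 of 1437 passed. The levels of the screens were compared over run means of log2 CPM, 3 against 3, where the smallest possible exact p is 0.1. FTL was at 12.56 ± 0.42 in dT and 12.63 ± 0.23 in Bio (SD, n = 3 runs), a difference of 0.06 (two-sided exact permutation p = 0.9). FTH1 differed by -0.39 (exact p = 0.3), FTLP3 by -0.31 (exact p = 0.3) and TFRC by -0.65 (exact p = 0.1), with Benjamini-Hochberg values of 0.4 for each of these 3.

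The separate DMSO controls were compared with DMSO_DMSO of the screen. FTL was at 7289, 1535 and 3711 CPM in dT and at 8226, 1768 and 1326 CPM in Bio. Run 1 overlapped the solvent libraries, while runs 2 and 3 lay below them in both screens. Those low libraries had mitochondrial shares of 31.0% and 36.9% in dT and of 25.0% and 28.1% in Bio, against 10.2% and 5.10% in run 1. They would fail the limit of 15%, which was not applied to the separate controls, and the part of these shares in the low FTL was not tested. The log2 differences were -0.67 ± 0.39 in dT (adjusted p = 0.305, edgeR) and -1.09 ± 0.97 in Bio (adjusted p = 0.374). FTH1 was at 1385, 584 and 383 CPM and at 1595, 526 and 482 CPM, with log2 differences of -0.21 ± 0.84 and 0.01 ± 2.10. The median log2 difference of all genes was 3.39 in dT and 5.63 in Bio, beside the higher number of detected genes in the controls, and 0.116% and 0.0432% of genes passed.

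Summed, FTL and FTLP3 had a median of 6144 CPM in dT (range 1842 to 19750) and of 6675 CPM in Bio (range 2223 to 13388), close to FTL alone. FTLP3 amounted to 0.150% to 2.20% of FTL in dT (median 0.577%) and to 0% to 1.93% in Bio (median 0.403%). With imatinib this share had a median of 0.501% against 0.772% without in dT and 0.384% against 0.576% in Bio, and its mean was lower in 3 of 3 runs in both screens. With YM115 it was 0.570% against 0.582% in dT and 0.327% against 0.595% in Bio. The dT libraries with DMSO listed first, the shallowest, had a median share of 1.06%, against 0.363% with imatinib, 0.607% with trametinib and 0.561% with YM115 listed first. In dT, low depth and first-listed DMSO cannot be told apart. In Bio, libraries with DMSO listed first held a median of 161490 counts and a share of 0.906%, and those with imatinib listed first a median of 178114 counts and a share of 0.381%.

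The ratio of FTL to FTH1 counts had a median of 8.54 in dT (range 1.87 to 37.6) and of 10.5 in Bio (range 1.53 to 378). In the solvent libraries it was 7.23, 13.6 and 6.32 for dT, and 8.05, 9.23 and 9.33 for Bio. It was highest in dT for DMSO_Trametinib, at 37.6, 24.3 and 19.2, where FTL was high and FTH1 was not, and lowest in Imatinib_Imatinib run 3. DMSO_Imatinib had 4.54, 3.51 and 5.86, below all 3 solvent libraries. With YM115 the median was 9.60 against 8.13 without in dT and 13.2 against 9.23 in Bio, with groups that overlapped. The highest Bio value belonged to YM115_Trametinib run 3, where FTH1 was at 19.97 CPM.

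**Figure D4:**
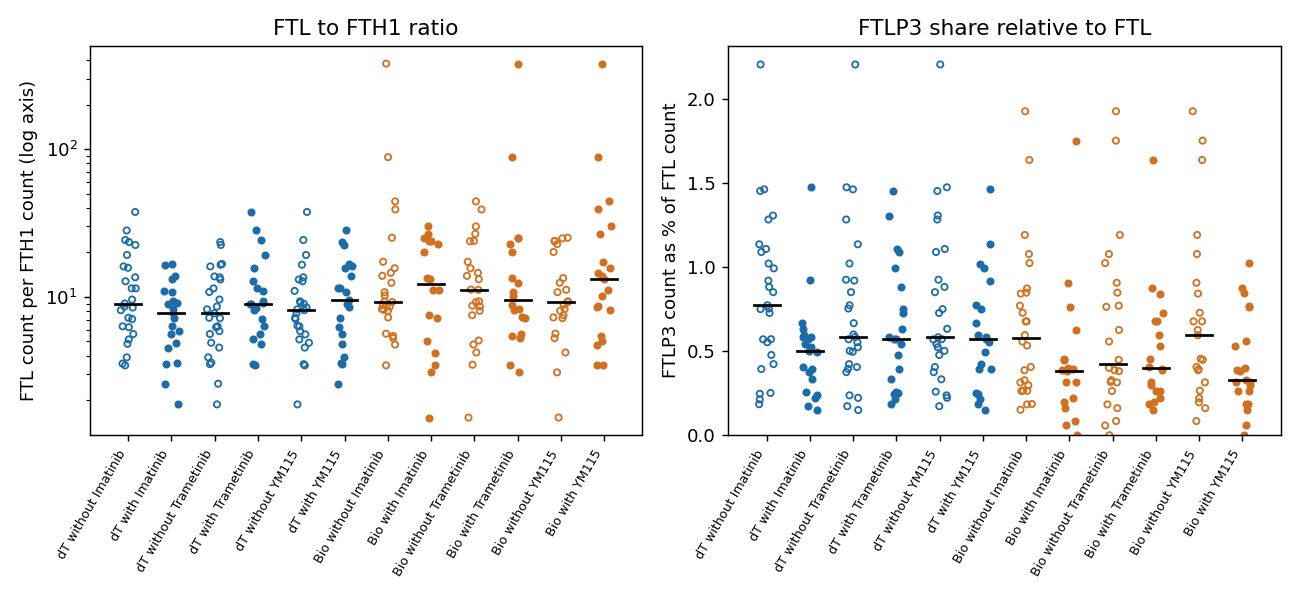
Ratio of FTL to FTH1 counts (left, log axis) and FTLP3 as percent of FTL (right) in libraries with (filled) and without (open) each drug, with lines at the medians. The FTL to FTH1 ratio overlaps for every drug, and FTLP3 as percent of FTL has a lower median with imatinib in both screens (0.501% against 0.772% in dT).

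TFRC was absent from most libraries and high in a few, so it is not given as a level. It was counted in 15 of 48 dT libraries and in 6 of 44 Bio libraries, with more than 3 counts in 10 and 4 of them. In the 33 dT libraries at 0, a limit of 3 counts corresponds to 5.79 to 23.6 CPM (median 9.67), and in the 38 Bio libraries at 0 to 3.85 to 36.7 CPM (median 12.8), for counting error only. The highest dT values were 396 and 763 CPM in runs 1 and 2 of Trametinib_DMSO, whose run 3 was at 0. YM115_Imatinib had 279 and 326 CPM in runs 1 and 2 and 0 in run 3, and YM115_YM115 had 160, 54.4 and 0 CPM. In every one of these conditions 1 run had no count, so no condition was set apart.

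Other dT values over 3 counts included 314 CPM in run 3 of Imatinib_Trametinib, 51.8 CPM in run 3 of Imatinib_Imatinib, 39.7 CPM in run 1 of Imatinib_YM115 and 18.2 CPM in run 1 of DMSO_YM115. In Bio the high libraries were run 3 of YM115_DMSO (264 CPM), run 2 of Trametinib_DMSO (60.7 CPM) and run 2 of DMSO_Trametinib (23.3 CPM), besides run 2 of YM115_YM115. DMSO_DMSO held 0, 0 and 15.1 CPM in dT and 0 in all 3 Bio runs, while all 6 separate controls counted TFRC, at 30.7, 7.79 and 2.18 CPM in dT and 56.0, 78.3 and 80.4 CPM in Bio. These were 1 to 8 counts each. The fitted differences of TFRC in dT were 1.61 ± 1.41 for imatinib (adjusted p = 0.735, edgeR) and 1.35 ± 2.35 for trametinib (adjusted p = 0.914). In Bio it was counted in too few libraries to be fitted for the drugs, and the higher level in the separate controls, against 0 counts in DMSO_DMSO, did not pass (adjusted p = 0.189).

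**Figure D5:**
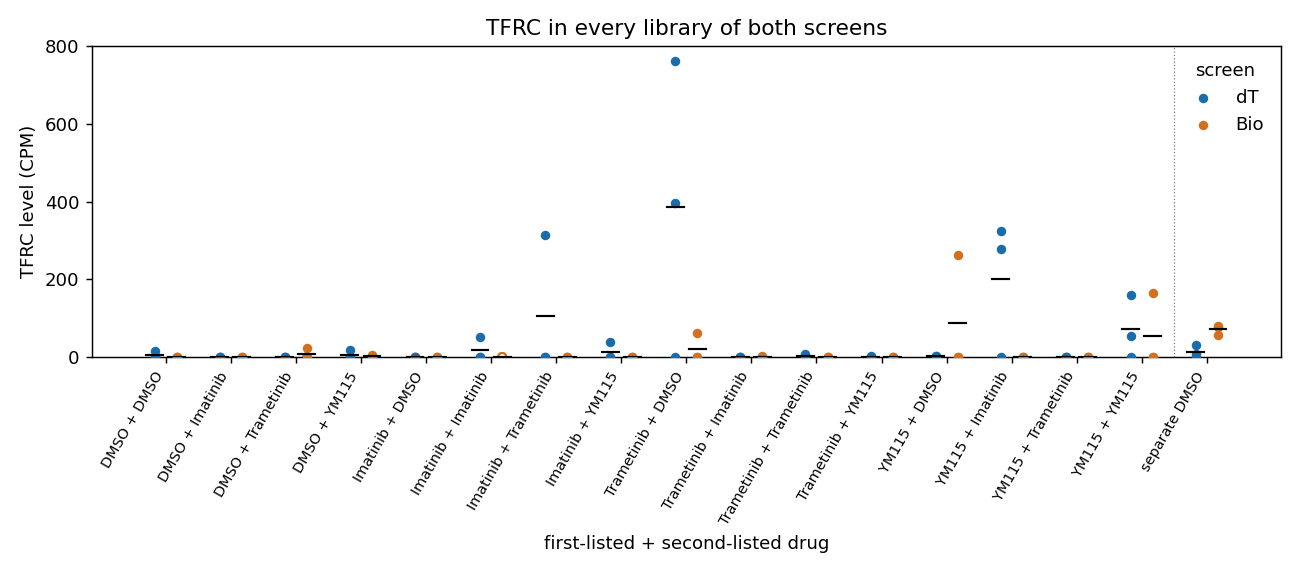
TFRC in CPM by ordered drug pair in dT and Bio, drawn as for FTL. Most libraries are at 0, single libraries reach 763 CPM in dT and 264 CPM in Bio, and the 3 separate Bio controls lie between 56.0 and 80.4 CPM.

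Over the 22 tested comparisons, 0 of 85 member tests passed in edgeR, 9 had an unadjusted p under 0.05, and 4 passed in DESeq2. These comparisons leave out the YM115 effect of each screen. They include YM115 in pairs, in both positions and by screen, which use the libraries that FTL and FTLP3 were picked on. The 85 also hold the TFRC fits named above, whose SE was too large for a call. An unadjusted p under 0.05 was common over all genes too, for example in 546 of 3930 for imatinib and 1293 of 4492 for listed position in dT. The DESeq2 calls were FTLP3 with imatinib in both screens, FTL with trametinib in both positions of dT and TFRC with imatinib in both positions of dT. The TFRC call rests on run 3 of Imatinib_Imatinib, with 21 counts. The other runs of that pair and both orders of imatinib with DMSO had 0, and DESeq2's handling of outlying counts was switched off.

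The table held 34 ferritin loci, of which 18 were counted in at least 50% of dT libraries and 14 of Bio libraries. FTL took 86.4% of all ferritin counts in dT and 88.4% in Bio, and FTH1 took 10.8% and 9.14%. FTH1P8, a processed copy of FTH1, took 0.63% and 0.492%, close to the 0.61% and 0.506% of FTLP3. FTH1P8 was identical to FTH1 at 503 of 513 aligned bases (98.05%), and 97 of its 456 windows of 59 bases occurred unchanged in FTH1, so its counts are uncertain in the same way. Its median level was 37.8 CPM in dT and 28.7 CPM in Bio, 5.51% and 5.86% of FTH1. Of 6 ferritin loci tested in dT and 4 in Bio, 0 passed for imatinib or trametinib, and their median log2 fold changes were -0.11 and -0.08 for dT, and -0.38 and -0.11 for Bio, beside 0.07, 0.23, 0.21 and 0.39 for all genes. With YM115, the contrast behind the choice of FTL, the medians were -0.70 in dT and -0.53 in Bio.

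Genes of iron uptake, storage control and export were mostly too sparse to test, with 8 of 29 tested in dT and 6 in Bio. TFR2, a second transferrin receptor that senses iron, was the 1 called, higher with trametinib in dT at 5.68 ± 1.30 (log2, adjusted p = 0.0129, edgeR), and was counted in 13 of 21 libraries with the drug and 6 of 27 without. Its call held in 5 of 8 alternatives. The median of the list was 0.42, 0.47 and -0.34 for imatinib, trametinib and YM115 in dT and -0.54, 0.94 and -0.15 in Bio. For genes this near 0 the fitted fold follows from the prior count and is no measure of size.

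For iron-sulphur cluster assembly 8 of 23 genes were tested in dT and 5 in Bio. The medians of the list were 0.16, -0.63 and 0.30 for dT, and 0.74, 0.66 and -0.20 for Bio. NRF2 is a stress-response factor with FTL and FTH1 among its known targets, and 15 of 22 listed targets were tested in dT and 13 in Bio. ABCC1, an export pump, was lower with imatinib in dT at -4.64 ± 1.24 (adjusted p = 0.0265), counted in 3 of 21 libraries against 14 of 27, and passed in 4 of 8 alternatives. NQO1, a quinone reductase, was higher with YM115 in Bio at 6.95 ± 1.77 (adjusted p = 0.0161), counted in 8 of 21 libraries against 2 of 23, and passed in 6 of 6. The medians of NRF2 targets were -0.24, 0.19 and -0.43 for dT, and -0.02, 0.14 and 0.13 for Bio.

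In edgeR's joint test of listed position, single genes of these lists passed, in numbers that set no list apart. In dT 1 of 10 genes passed for iron uptake and export, 1 of 9 for iron-sulphur assembly, 0 of 16 for NRF2 targets and 0 of 6 for ferritin loci, beside 13.9% of all genes. In Bio 1 of 6, 2 of 5, 2 of 15 and 0 of 4 passed, beside 18.5% of all genes, and DESeq2 called 22 genes in dT and 10 in Bio in all. The dT genes were HSPA9, a mitochondrial chaperone (adjusted p = 0.0281, past in 3 of 8 alternatives), and CD63, a membrane protein of late endosomes (adjusted p = 0.0352, 2 of 6). The Bio genes were HSPA9 (adjusted p = 0.0365, 4 of 8), NUBP2 of the cytosolic iron-sulphur scaffold (adjusted p = 0.00654, 6 of 9), the haem transporter SLC48A1 (adjusted p = 0.0323, 3 of 9), the peroxidase PRDX1 (adjusted p = 0.00888, 4 of 6) and PGD of the pentose phosphate pathway (adjusted p = 0.0401, 3 of 9). The position coefficients of HSPA9, coded as for FTL above, were negative for all 3 drugs in dT, at -3.17, -3.00 and -3.38. In Bio they were positive, at 2.13, 4.26 and 2.75. The barcodes of the sources were swapped between the screens, and their part in this was not tested. No listed gene passed for an interaction, for a drug in both positions or for the separate controls in edgeR.

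Finally, the genes whose level followed each member most closely were taken by Spearman's rho of log2 CPM over the 48 dT libraries, among 2187 genes counted in at least 50% of them. For FTL they were FTLP3 (rho 0.72), MTCO1P40 (0.56) and CREG1 (0.54), and the same genes had rho of 0.51, 0.26 and -0.32 over the 44 Bio libraries. For FTH1 they were FTH1P8 (0.85, Bio 0.57), MT-ND5 (0.56, Bio 0.19) and PTMS (0.54, Bio 0.21). FTLP3 was closest to FTL, then to ATP5F1B (0.50, Bio -0.24) and to ENSG00000227706 (0.49, Bio -0.12). FTL and FTH1 had rho of 0.46 in dT and 0.26 in Bio. FTLP3 and FTH1P8 were the pseudogenes with the highest base identity to FTL (97.73%) and FTH1 (98.05%). By read-length windows found unchanged in FTH1, FTH1P8 (21.27%) lay below FTH1P7 (37.25%). The part of shared sequence in these values was not tested. FTL and FTLP3 were both picked for a lower level with YM115 in these libraries, so a high rho between them is in part a result of that choice. The libraries share runs, barcodes and differences in depth, so these values are descriptions, and TFRC was counted too rarely to be ranked.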

How the data were processed

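Combi-Seq libraries of K562 cells were taken as deposited. The deposited values are the authors' read counts for each gene, not normalised, and the submitters' processing notes name STAR 2.4.2a and GRCh38. The annotation, the use of strand and any collapse of duplicate molecules are not given in the sources used here. The barcode fragments listed in the paper hold condition barcodes and name no molecule identifier. CPM was computed over the sum of counts of a library. The 4 members, the gene lists, the tests and the alternatives were chosen with earlier results of these data known. Genes are named when they are members, when they are listed genes past the threshold, or when they are the 3 most like a member by Spearman's rho (prior count 2). One result of the iron-sulphur list is not reported here.

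Counts were fitted in edgeR 4.0.16 (R 4.3.3, limma 3.58.1) with TMM scaling, filterByExpr and the quasi-likelihood test, with Benjamini-Hochberg adjustment over all genes tested and a threshold of 0.05. Run entered as a block, since the study treated the replicate as a batch, which it removed with ComBat. Residuals of the same run correlated at a mean r of 0.0244 in dT and 0.0278 in Bio, against -0.0122 and -0.0139 between runs. DESeq2 1.42.0, its size factors, no count filter, no library filter, FTL and FTLP3 merged, no block and leaving out each replicate were alternatives. Scripts were tested on simulated data. Sequences came from GENCODE 29 on GRCh38. Replicates were compared in 102 pairs and 0 were identical. Levels of the screens were compared with exact permutation tests in scipy 1.17.1, and intervals and limits cover counting error only.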

Additional observations from a re-analysis of the deposited data

Results flagged for a closer look

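The 4 Bio libraries left out of the comparisons had higher FTL and FTLP3 levels in CPM than the solvent libraries of that screen. This is a share of small totals. Runs 1 to 3 of Imatinib_Imatinib held 30359, 25110 and 17882 counts, of which FTL had 657, 331 and 450. In the solvent libraries FTL had 1393, 831 and 588 counts. In the 3 Imatinib_Imatinib libraries the mean level was 19996 CPM for FTL, 2863 CPM for FTH1 and 315.6 CPM for FTLP3, and every FTL value (21641, 13182 and 25165 CPM) lay above the highest solvent value of 12118 CPM. These libraries held 1, 0 and 0 counts of HBG2, and the ribosomal protein gene RPS6 stood at 102046, 173716 and 172632 CPM in them, against 299.5 to 13354 CPM in the Bio libraries that entered. In the dT screen the same pair had 8691, 5486 and 2356 CPM of FTL and stood within the other conditions. The part of their low gene number in these levels was not tested. Run 1 of DMSO_Trametinib, also left out, had 17374 CPM of FTL and 255.5 CPM of FTLP3, with 0 counts of FTH1, where a limit of 3 counts corresponds to 31.9 CPM.

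In the fit of both screens, 3 genes of the iron lists had drug effects that differed between the screens in edgeR. FDXR, a mitochondrial reductase that supplies electrons for iron-sulphur assembly, differed for imatinib by -5.10 ± 1.64 (log2, Bio minus dT, adjusted p = 0.0458). BOLA3, a late iron-sulphur assembly factor, differed for YM115 by 4.96 ± 1.38 (adjusted p = 0.0185), and TFR2 by 4.84 ± 1.37 (adjusted p = 0.0192). FDXR was counted in 40.2% of libraries, BOLA3 in 17.4% and TFR2 in 30.4%, so these fitted values are no measure of size. Their calls held in 5 of 9, 6 of 8 and 5 of 9 alternatives. Of all genes, 5.84% differed between the screens for imatinib and 6.59% for YM115. With only genes counted in at least 50% of libraries, 0 of 1437 differed for imatinib and 4 for YM115.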

How the results depend on the processing

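The number of members past the threshold stayed at 0 in 202 recomputed values and rose to 1 in 7. With DESeq2 in place of edgeR it was 1 for imatinib in dT and in Bio (FTLP3 in both) and 1 each for imatinib (TFRC) and trametinib (FTL) in both positions of dT. For the listed position in dT it was 1 with DESeq2's size factors (FTL) and 0 to 1 over the fits that left out 1 replicate (TFRC, without replicate 3). Without the run as a replicate block it was 1 for imatinib by screen, where TFRC had -5.45 (adjusted p = 0.0393) and FTL -0.0189, and the block changed no other call of a member. Without the block fewer genes were tested, and genes past the threshold fell from 113 to 12 for imatinib, from 54 to 9 for trametinib and from 103 to 23 for YM115 in dT.

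Small values changed sign under some settings, and the cause was not tested. FTH1 with imatinib in dT went to -0.079 with DESeq2's size factors and -0.0791 with DESeq2, and ranged from -0.10 to 0.26 when 1 replicate was left out, as TFRC there did from -0.40 to 2.24. With trametinib in Bio, FTL went to 0.0511 without the count filter and ranged from -0.20 to 0.0276 with 1 replicate left out, and FTH1 went to 0.00674 and ranged from -0.32 to 0.15. The interaction of imatinib with YM115 in Bio for FTL went to 0.0139 with DESeq2's size factors, 0.0134 with DESeq2 and 0.0324 without the count filter, and ranged from -0.35 to 0.22 with 1 replicate left out. The same ranges were -1.01 to 0.10 for trametinib with YM115 in Bio, -0.45 to 0.15 for YM115 in both positions of Bio and -0.34 to 0.36 for imatinib by screen. The level of FTL in Bio minus dT went to -0.23 with TMM scaling and ranged from -0.18 to 0.20. For YM115 the fitted change of FTL stayed between -1.04 and -0.77 in dT and between -0.60 and -0.37 in Bio, and that of FTLP3 between -1.84 and -1.51 and between -2.16 and -1.53.

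The count over all genes depended on the settings far more than the members did, ranging over the alternatives from 5 to 510 for imatinib, 0 to 468 for trametinib and 16 to 503 for YM115 in dT (113, 54 and 103 as reported), and from 0 to 194, 1 to 182 and 3 to 260 in Bio (42, 39 and 48). For the listed position it ran from 11 to 1314 in dT and from 0 to 582 in Bio (625 and 390). DESeq2 called 942, 878 and 773 genes for the interactions in dT and 819, 873 and 896 in Bio, 1048, 884 and 1043 by screen, and 739 and 966 for the separate controls, against 28, 27 and 33, 13, 1 and 18, 275, 216 and 310, and 8 and 2 as reported. Depth limits TFRC and the low end of FTLP3, at 3 counts or fewer in many libraries. A fit without the library filter adds nothing in dT, where all libraries passed.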
